A study of Mus musculus with 2 samples.

Results

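Collagen genes were described here in the mouse heart. A member was any gene with a protein-coding transcript and a symbol made of Col, a type number, the letter a and a chain number. The rule found 44 genes among 55536 in the tables, 21901 of which have a protein-coding transcript, and it used names only, no measured value. Each of the 44 was placed in 1 of 8 structural classes.

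The study sequenced total RNA from whole heart tissue of female B6CASTF1/J mice, an F1 hybrid strain, at 25 days of age. Each library was made from 300 ng, and ERCC spike-in RNAs were included. Its 2 libraries are biological replicates of a single group with no treatment, and are called replicate 1 and replicate 2. The labels give both the same donor but number the animals separately. There is therefore no condition to compare, and each test below sets 1 library against the other. The libraries held 43190646 and 42954475 estimated counts.

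Collagens are secreted proteins in which 3 chains wind into a triple helix built from repeats of 3 residues that begin with glycine. Fibrillar collagens form the load-bearing fibrils of the interstitium, type IV collagens form the sheets of basement membranes around myocytes and vessels, and type VI forms beaded microfibrils between them. FACIT collagens sit on fibril surfaces, and multiplexins are basement membrane proteoglycans whose ends can be released as separate fragments. In the heart, fibroblasts are known as the main source of fibrillar collagen, and endothelial and mural cells as sources of type IV. In bulk tissue, fewer cells of a type and less RNA per cell cannot be told apart.

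The repeat can be read in the annotated coding sequences. The fibrillar class stood apart from the others by its longest run and type IV by its number of breaks, while most other classes overlapped. Runs of at least 5 successive triplets that begin with glycine were counted in the longest coding transcript of each gene. In the 11 fibrillar genes the longest run held 216 to 344 triplets, with 1 or 2 breaks between runs. In the 6 type IV genes the longest run held 39 to 66 triplets and 21 to 26 breaks were found. Col3a1 had the longest run of all members, at 344 triplets. In the 6 type VI genes triplets covered 10% to 35.4% of the residues, so most of each chain lies outside the helix.

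The type IV genes lie in head-to-head pairs. All 3 pairs are compared in level below. Start windows are shown for 2 of the 3, and Col4a3 of the other pair had no RefSeq window. Col4a1 and Col4a2 start on opposite strands of chromosome 8 and overlap by 22 bases (GRCm38.p6, mm10). Col4a4 and Col4a3 are separated by 71 bases on chromosome 1, and Col4a6 and Col4a5 by 1308 bases on chromosome X. The windows run 5′ to 3′ from 250 bases before to 50 bases after the RefSeq start of each gene. Capitals mark the CCAAT box, the GC box GGGCGG and the TATA box TATAAA, searched on both strands.
Col4a1 (chr8:11312777-11313076, minus strand): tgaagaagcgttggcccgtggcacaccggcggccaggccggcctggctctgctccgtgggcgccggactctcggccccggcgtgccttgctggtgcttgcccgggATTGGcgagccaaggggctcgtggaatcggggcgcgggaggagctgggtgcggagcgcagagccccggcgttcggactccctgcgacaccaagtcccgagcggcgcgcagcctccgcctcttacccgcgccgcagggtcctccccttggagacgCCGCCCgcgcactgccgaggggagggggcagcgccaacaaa
Col4a2 (chr8:11312555-11312854, plus strand): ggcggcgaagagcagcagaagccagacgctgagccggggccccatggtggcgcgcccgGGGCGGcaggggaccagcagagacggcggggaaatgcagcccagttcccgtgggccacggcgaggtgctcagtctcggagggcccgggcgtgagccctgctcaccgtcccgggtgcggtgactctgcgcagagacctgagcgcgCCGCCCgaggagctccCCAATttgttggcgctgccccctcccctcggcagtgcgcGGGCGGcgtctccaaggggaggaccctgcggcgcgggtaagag
Col4a6 (chrX:141474027-141474326, minus strand): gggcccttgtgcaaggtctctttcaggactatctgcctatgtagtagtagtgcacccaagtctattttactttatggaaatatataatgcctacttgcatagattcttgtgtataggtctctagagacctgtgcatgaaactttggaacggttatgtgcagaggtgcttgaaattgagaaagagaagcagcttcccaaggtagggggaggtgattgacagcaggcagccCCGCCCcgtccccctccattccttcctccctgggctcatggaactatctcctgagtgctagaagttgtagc
Col4a5 (chrX:141475169-141475468, plus strand): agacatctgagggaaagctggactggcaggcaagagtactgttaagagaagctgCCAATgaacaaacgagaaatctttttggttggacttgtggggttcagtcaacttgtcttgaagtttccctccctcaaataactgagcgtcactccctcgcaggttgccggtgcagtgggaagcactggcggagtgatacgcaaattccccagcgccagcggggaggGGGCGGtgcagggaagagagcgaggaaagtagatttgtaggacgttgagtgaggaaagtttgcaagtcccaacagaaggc

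The Col4a1 and Col4a2 windows overlap by 78 bases and are 74.0% and 73.7% G or C. Col4a6 and Col4a5 windows do not overlap, and hold 48.3% and 52.7%. Of the members, 35 had a RefSeq window, in 38 windows. CCAAT was found in 13 of the 38 and in 37.4% of 32851 windows of all genes. GGGCGG was found in 23 of the 38 and in 35.7% of all windows. The median share of G or C was 59.9% in collagen windows and 52.7% in all windows, and the GGGCGG counts were not adjusted for it. TATAAA was found in 5 of the 38 and in 13.6% of all windows. Among windows of detected members, TATAAA occurred in that of Col3a1 alone, which is shown for contrast and is 37.7% G or C.
Col3a1 (chr1:45311288-45311587, plus strand): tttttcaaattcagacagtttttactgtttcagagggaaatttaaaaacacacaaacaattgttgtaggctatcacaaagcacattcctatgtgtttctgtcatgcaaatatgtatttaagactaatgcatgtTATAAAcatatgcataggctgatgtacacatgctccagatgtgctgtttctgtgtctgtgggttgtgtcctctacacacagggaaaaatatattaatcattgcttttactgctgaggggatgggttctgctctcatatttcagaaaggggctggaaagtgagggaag

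These matches describe letters in a window and no binding was measured.

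Of the 44 collagen genes, 21 reached 1 TPM in both hearts, which is 47.7%, beside 50.1% of 21888 nuclear genes with a coding transcript. TPM is a transcript abundance corrected for length and scaled to a fixed total. Unscaled estimated counts of the members summed to 166801 in replicate 1 and 135306 in replicate 2. Summed over members, TPM was 973 in replicate 1 and 739 in replicate 2, a larger relative gap than in the counts. That is 0.0981% and 0.0746% of all TPM (mean 0.0864% ± 0.0167, SD, n = 2), or 0.246% and 0.193% of the TPM of nuclear coding genes. The 2 highest members held 42.2% of collagen TPM, the 5 highest 71.9% and the 10 highest 91.2%, as means of the hearts.

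Basement membrane and fibrillar classes held most of it. Type IV genes held 40.8% of collagen TPM in replicate 1 and 42.5% in replicate 2, and fibrillar genes 39.0% and 37.8%. The order of these classes depends on the transcripts counted. Over coding transcripts of at least 2000 bases, a choice made after seeing the data, type IV genes held 38.3% and 39.7% and fibrillar genes 42.1% and 41.2%. Over all transcripts again, microfibril genes held 10.8% and 10.6%, multiplexins 7.26% and 6.85%, and FACIT genes 1.39% and 1.51%. Hexagonal network, transmembrane and other collagens held means of 0.461%, 0.115% and 0.129%, also over all transcripts.

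**Figure D1:**
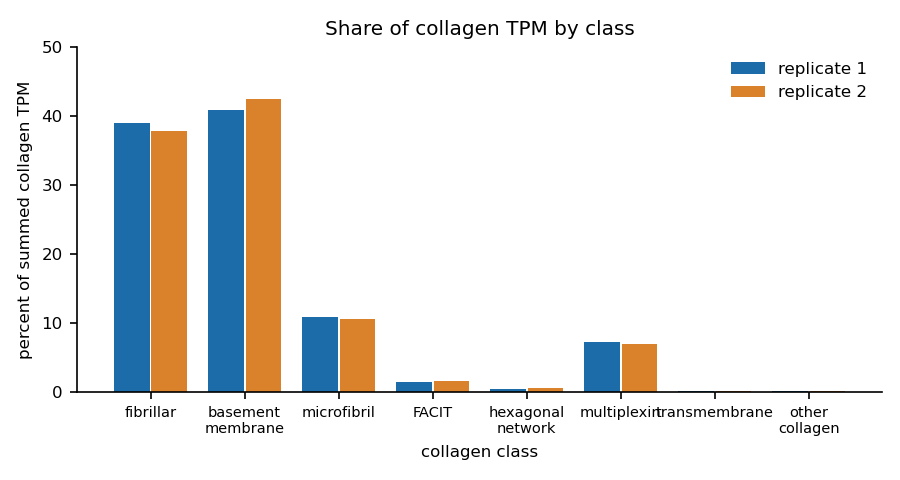
Percent of summed collagen TPM (vertical axis) held by each of the 8 collagen classes (horizontal axis), 1 bar per replicate. Basement membrane bars stand at 40.8% and 42.5% and fibrillar bars at 39.0% and 37.8%, above every other class in both replicates.

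Among fibrillar genes, Col3a1, the chain of the type III homotrimer found in distensible tissue, was highest, with 179 and 124 TPM in replicates 1 and 2. Col1a1 and Col1a2, the chains of type I collagen, were at 81.1 and 61.7 TPM and at 72.0 and 56.1 TPM. Their ranges over the hearts overlap, although Col1a1 was above Col1a2 in both. Type V chains, which sit inside type I fibrils and limit their diameter, were lower. Col5a1 was at 22.4 and 17.5 TPM, Col5a2 at 13.4 and 11.7 TPM and Col5a3 at 10.1 and 7.74 TPM. These 3 ranges are apart from each other. The cartilage-type and minor fibrillar genes Col2a1, Col11a1, Col11a2, Col24a1 and Col27a1 were below 1 TPM in both hearts.

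All 6 type IV genes were detected, over a wide range of levels. Col4a1, a chain of the network found in nearly all basement membranes, was the highest collagen gene at 239 and 182 TPM. Its partner Col4a2 was at 130.2 and 107 TPM. Col4a5 was at 20.7 and 19.7 TPM, a closer agreement between hearts than for its neighbours in the order, and its range lies inside that of Col5a1. Col4a4 was at 4.04 and 3.14 TPM, Col4a3 at 1.44 and 1.18 TPM and Col4a6 at 1.35 and 1.02 TPM. Ranges of the last pair overlap, and both lie close to the 1 TPM threshold.

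Of the microfibril genes, the 3 classical type VI chains were close together. Col6a2 was at 40.9 and 29.3 TPM, Col6a1 at 35.8 and 27.1 TPM and Col6a3 at 26.9 and 19.8 TPM. Ranges of Col6a2 and Col6a1 overlap. Col6a6, a later-described chain related to Col6a3, was at 1.75 and 1.73 TPM, and Col6a4 and Col6a5 were below 1 TPM.

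The remaining detected members were fewer and mostly low. Col15a1, a multiplexin of the zone between basement membrane and fibrils, was at 64.7 and 45.7 TPM, a range that overlaps that of Col1a2. Col18a1, the multiplexin that carries the endostatin domain, was at 5.88 and 4.96 TPM. Col14a1, a FACIT of fibril surfaces, was at 8.93 and 6.99 TPM and Col16a1, also a FACIT, at 3.49 and 3.36 TPM. In replicate 1 the TPM of Col16a1 lies below its own deposited interval of 3.56 to 5.63. Coding transcripts of at least 2000 bases held only 0.68 and 0.52 TPM of this gene. Col8a1, a short-chain collagen of vessel walls, was at 4.00 and 3.27 TPM. Of the 20 neighbouring pairs in the order of levels, 10 have overlapping ranges over the hearts.

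**Figure D2:**
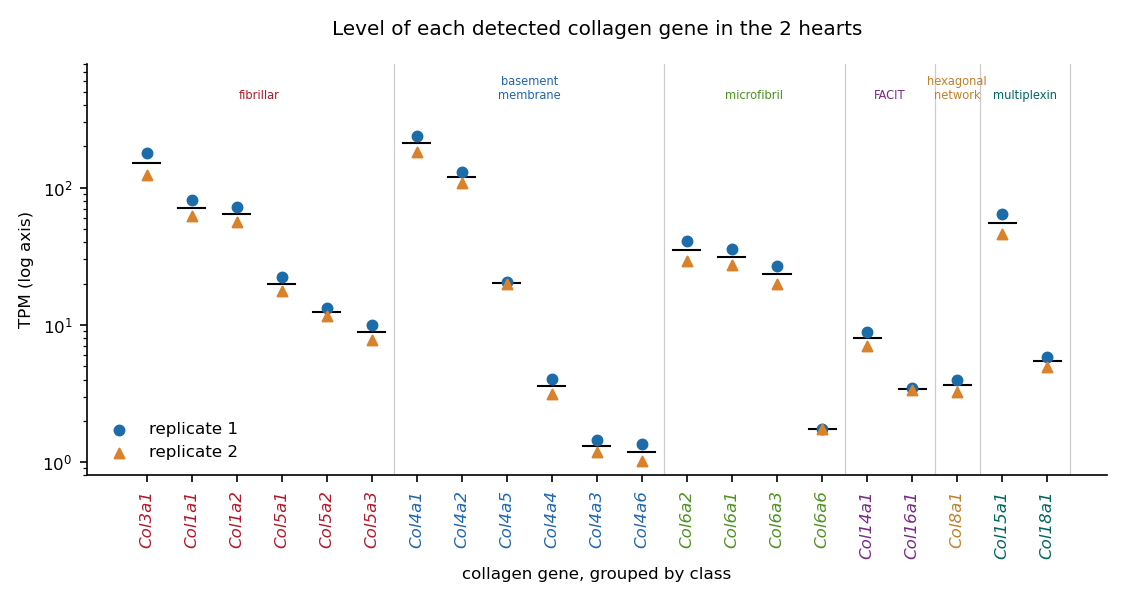
TPM on a log axis (vertical) of the 21 detected collagen genes (horizontal), grouped by class, with a circle for replicate 1, a triangle for replicate 2 and a line at their mean. Every gene shown lies higher in replicate 1 by TPM, by the least for Col6a6 at 1.75 and 1.73 TPM. By scaled counts, Col4a5 and Col6a6 were higher in replicate 2.

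The 23 other members had mean TPM between 0.015 and 0.82, and 21 of them had counts in both hearts. The closest to the threshold was Col26a1, with 1.07 and 0.57 TPM in the respective hearts. Just inside it lay Col4a6. No transmembrane collagen was detected. Col10a1, the collagen of hypertrophic cartilage, had 1 and 2 counts, and Col17a1, of epithelial anchoring junctions, had 1 and 0.

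Chain ratios ask how far the levels of partner chains match the makeup of the trimers. They are given as the log2 ratio of TPM plus 0.1, as mean ± SD over the 2 hearts. The smallest p that a sign-flip permutation test over 2 hearts allows is 0.5, and it was left out. Type I collagen holds a pair of Col1a1 chains for each Col1a2 chain, while the transcripts stood at 1.13 to 1 in replicate 1 and 1.10 to 1 in replicate 2 (log2 0.15 ± 0.02, n = 2). The direction depends on the quantification, since the read-based tables give -0.05. Col3a1 exceeded Col1a1 by 2.21 and 2.01 times (log2 1.07 ± 0.09, n = 2).

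Col4a1 exceeded Col4a2 by 1.84 and 1.70 times (log2 0.82 ± 0.08, n = 2). Restricted to coding transcripts of at least 2000 bases, a choice made after seeing the data, the ratio was 1.24 and 1.17 times (log2 0.27). Col4a3 was below Col4a4 (log2 -1.38 ± 0.06, n = 2) and far below Col4a5 (log2 -3.85 ± 0.14, n = 2), with which both assemble. Col4a5 exceeded its head-to-head partner Col4a6 by 15.3 and 19.3 times (log2 3.99 ± 0.21, n = 2).

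Type VI chains assemble in equal numbers. Col6a1 stood at 0.875 and 0.925 of Col6a2 (log2 -0.15 ± 0.06, n = 2), and Col6a3 at 0.753 and 0.730 of Col6a1 (log2 -0.43 ± 0.03, n = 2). Over coding transcripts of at least 2000 bases Col6a3 stood at 0.483 and 0.491 of Col6a1. Col6a6 was far below Col6a3 (log2 -3.66 ± 0.3, n = 2). Col5a1 exceeded Col5a2 by 1.68 and 1.5 times (log2 0.66 ± 0.11, n = 2) and Col15a1 exceeded Col18a1 by 11.0 and 9.22 times.

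**Figure D3:**
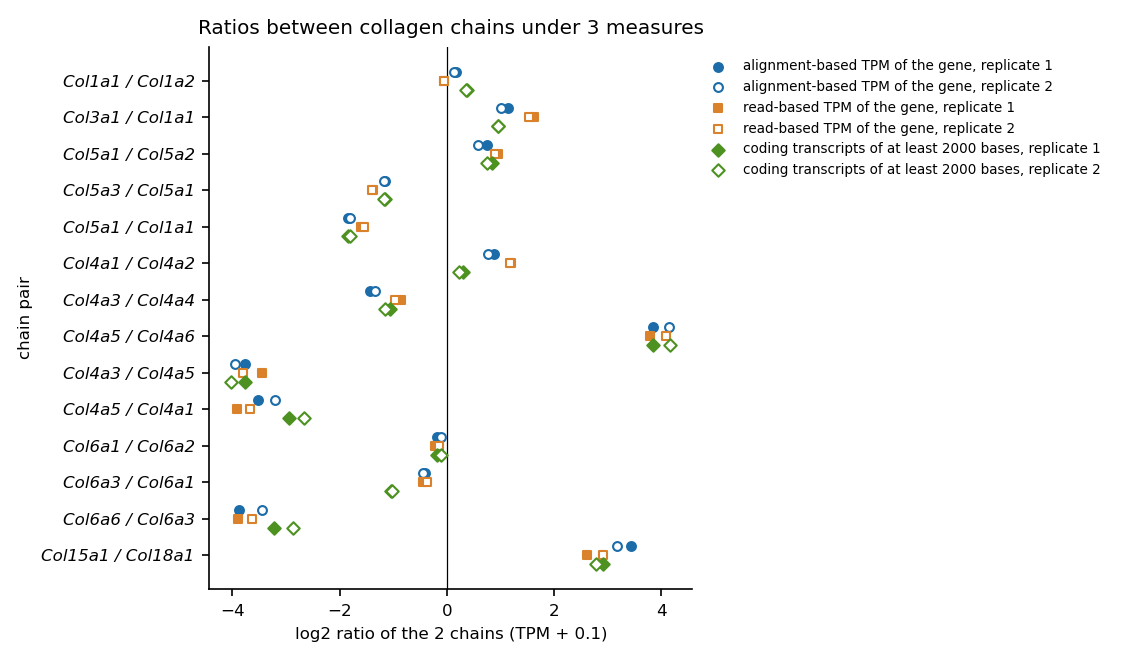
Log2 ratio of TPM plus 0.1 (horizontal axis) for the 14 chain pairs with both chains detected (vertical axis), under alignment-based TPM, read-based TPM and TPM over coding transcripts of at least 2000 bases, filled for replicate 1 and open for replicate 2. Col4a1 over Col4a2 moves from 0.82 to 0.27 with the long transcripts, and Col1a1 over Col1a2 crosses 0 in the read-based tables.

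Short transcript models held a large part of the TPM of some collagen genes. Transcripts under 2000 bases held 1.77% and 1.48% of the counts of detected members but 15.1% and 12.3% of their TPM. Col4a1-203, a coding model of 545 bases, held 32.17% and 30.31% of Col4a1 TPM from 1160 and 859 counts, against 35124 and 28505 counts on the full-length Col4a1-201. Col3a1-205, of 737 bases, held 8.72% and 2.61% of Col3a1 TPM in the alignment-based tables and 36.4% and 32.5% in the read-based ones. Col6a3-206, a retained intron model of 646 bases, held 19.94% and 21.48% of Col6a3.

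**Figure D4:**
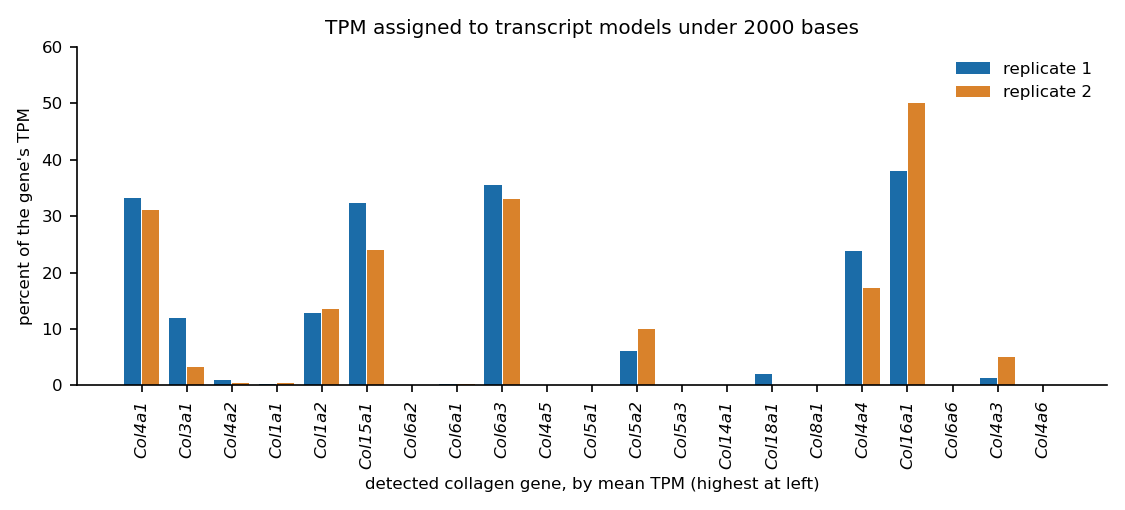
Percent of each detected collagen gene's TPM assigned to transcripts under 2000 bases (vertical axis), 1 bar per replicate, genes ordered by mean TPM. Col4a1 stands at 33.3% and 31.1% and Col16a1 at 38.1% and 50%, while Col5a1 and Col6a2 are at 0.

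The leading transcript was the same in both hearts and in both quantifications for 20 of the 21 detected members, beside 66.8% of 10332 detected genes with more than 1 transcript. The exception was Col16a1, for which no transcript held more than 25.61% in replicate 1 or 24.31% in replicate 2 in the alignment-based quantification. Its leaders there were Col16a1-209, a nonsense-mediated decay model, in replicate 1 and Col16a1-207, a processed transcript, in replicate 2. In the read-based quantification the coding Col16a1-201 led in both hearts, at 28.9% and 25.2%. Col14a1 was shared among 3 coding forms, with Col14a1-201 at 51.31% and 58.65%. Col18a1 was led by Col18a1-202 at 77.43% and 81.48%, which starts at the upstream of 2 RefSeq starts. Col18a1-203, from the downstream start, held 6.60% and 10.35%. Their windows are shown because they are alternative starts of a single gene.
Col18a1 upstream start (chr10:77166481-77166780, minus strand): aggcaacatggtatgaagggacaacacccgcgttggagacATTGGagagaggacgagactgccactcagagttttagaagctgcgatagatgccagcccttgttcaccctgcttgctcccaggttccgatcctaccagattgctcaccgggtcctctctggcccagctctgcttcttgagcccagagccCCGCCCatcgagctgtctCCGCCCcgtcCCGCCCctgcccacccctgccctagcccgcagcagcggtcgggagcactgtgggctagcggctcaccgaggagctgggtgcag
Col18a1 downstream start (chr10:77113656-77113955, minus strand): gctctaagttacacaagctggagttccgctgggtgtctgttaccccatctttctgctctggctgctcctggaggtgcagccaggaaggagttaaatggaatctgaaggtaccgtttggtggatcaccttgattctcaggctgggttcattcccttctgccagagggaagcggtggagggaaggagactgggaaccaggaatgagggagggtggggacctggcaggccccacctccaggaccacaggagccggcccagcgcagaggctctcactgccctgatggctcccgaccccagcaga

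The upstream window holds 1 CCAAT and 3 GGGCGG matches and the downstream window holds none of the 3 motifs. Exons of 7 detected members overlap an exon of another annotated gene. Whether counting used strand is not given in the sources used here, so reads in the shared bases are uncertain. The overlap is 22 bases for Col4a1 with Col4a2. Col3a1 shares 141 bases with Gm47302, a miRNA entry on the same strand listed at 257 and 219.9 TPM.

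Most collagen genes were lower in replicate 2. Of 35 members with a mean scaled count of at least 10, 30 were higher in replicate 1 and 4 in replicate 2, and Col25a1 was equal. Of these, 17 passed an adjusted p of 0.05 in that direction by an exact binomial test with Benjamini-Hochberg adjustment over 15851 genes. None passed in the other direction. Over all tested genes 20.4% passed, that is, 10.2% with their higher value in replicate 1 and 10.2% in replicate 2. The median log2 ratio of replicate 2 over replicate 1 was -0.28 for members and 0.01 for all tested genes. No member also differed by at least 2 times with separate deposited TPM intervals, a rule that 0.782% of genes met. Without adjustment 24 members had a p under 0.05 in this exact test. The share of all tested genes under that looser threshold was not computed, so this count has no background beside it. With a single library on each side there is no replicate check, and the intervals cover counting error only.

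Of 15 members whose mean count reached 1000, 14 were called higher in replicate 1, beside 16.9% of 4477 such genes. Their log2 ratios ran from -0.39 to 0.02 with a median of -0.28, beside a median of 0.02 for the 4477 genes. The median absolute log2 ratio of the 4477 genes was 0.08. Col6a2 had 5382 and 3981 counts, 1.31-fold higher in replicate 1 (95% interval 1.26 to 1.36). Col3a1 was 1.24-fold higher (1.22 to 1.27), Col1a1 1.23-fold (1.2 to 1.26), Col4a1 1.2-fold (1.18 to 1.21) and Col4a2 1.13-fold (1.11 to 1.15). The exception was Col4a5, with 4439 and 4367 counts and a ratio of replicate 2 to replicate 1 of 1.02 (0.974 to 1.06). By class, 8 of 10 tested fibrillar, 3 of 6 type IV, 3 of 5 microfibril, 2 of 4 FACIT and 1 of 2 multiplexin genes were called.

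Of the 17 calls, 2 were in genes below 1 TPM. Col11a2 had 101 and 44 counts, 2.20-fold higher in replicate 1 (1.53 to 3.2). Col2a1, the main collagen of cartilage, had 33 and 5 counts, 6.40-fold higher (2.48 to 21). The summed TPM of cartilage and valve markers was 4.25 and 4.54, with Matn1 at 0 in both and 1 of 6 markers detected.

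**Figure D5:**
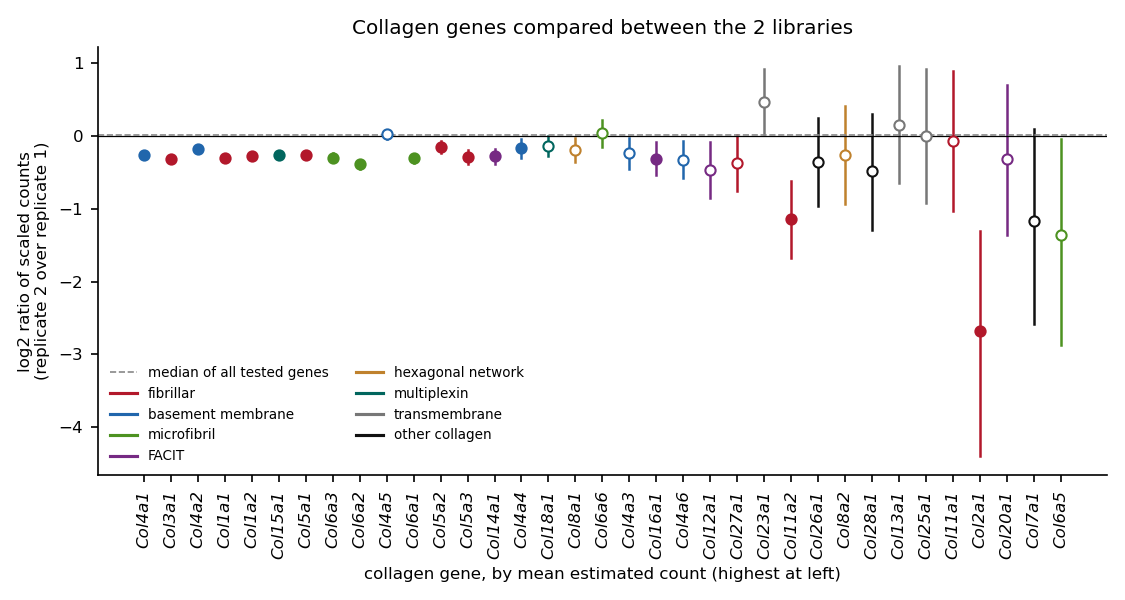
Log2 ratio of scaled counts, replicate 2 over replicate 1 (vertical axis), of the 35 tested collagen genes ordered by mean count (horizontal axis), with exact 95% counting intervals, filled where the adjusted p is under 0.05. Members whose mean count reached 1000 lie between -0.39 for Col6a2 and 0.02 for Col4a5, and intervals are wider for genes with few counts.

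Marker genes of several cell types differed between the hearts too. Summed TPM was higher in replicate 1 for fibroblast (648 and 568, with 7 of 7 markers higher there by TPM), endothelial (559 and 449, 6 of 6), smooth muscle (186 and 135, 5 of 5), pericyte (178 and 147, 4 of 5), macrophage (46.4 and 37.1, 5 of 5) and mesothelial markers (24.1 and 17.1, 5 of 5). It was higher in replicate 2 for endocardial (34.1 and 36.6, 4 of 4), white adipocyte (15.2 and 18.4, 5 of 5) and liver markers (2.80 and 23.9, 6 of 6). Cardiomyocyte markers summed to 20613 and 21103, with 3 of 5 higher in replicate 2 by TPM, while Ttn and Ryr2 were higher in replicate 1. By scaled counts, 4 of 5 were higher in replicate 2. Ryr2 was among these, with a ratio of replicate 2 to replicate 1 of 1.07, while that of Ttn was 0.986. Schwann cell markers summed to 5.0 and 4.66, with 4 of 5 higher in replicate 1 by TPM. By scaled counts, as used for the collagens, 6 of 7 fibroblast and 3 of 5 pericyte markers were higher in replicate 1. Their median log2 ratios were -0.13 and -0.0. All tested endothelial, smooth muscle, macrophage and mesothelial markers were higher there, and all tested endocardial, white adipocyte and liver markers in replicate 2. The part of these markers in the collagen difference was not tested. Fibrillar collagen TPM per fibroblast marker TPM was 0.586 and 0.493. Type IV TPM was 0.710 and 0.699 per endothelial marker TPM and 2.23 and 2.14 per pericyte marker TPM. Single genes weigh heavily in these sums. Gsn held 369 and 319 TPM of the fibroblast sum, and Fabp4 held 315 and 252 TPM of the endothelial sum.

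Genes that process collagen were described from 7 lists with 64 genes, 51 of them detected. Of 63 tested, 24 were called higher in replicate 1 and none in replicate 2, beside 10.2% of all tested genes in each direction, with a median log2 ratio of -0.10. In chain modification and folding, 7 of 17 were called. Serpinh1, the collagen chaperone, was at 173 and 133.8 TPM (1.19-fold higher in replicate 1). P4hb, a subunit of prolyl 4-hydroxylase, was at 98.3 and 87.9 TPM and Plod1, a lysyl hydroxylase, at 37.5 and 29.1 TPM. Ppib, a prolyl isomerase, was at 60.6 and 56.4 TPM and was not called. In secretion, 1 of 8 was called, a share near the 10.2% of all tested genes. It was Sar1a, a coat GTPase, at 58.4 and 53.0 TPM. Sar1b was at 49.6 and 50.04 TPM, and the cargo receptors Mia3 and Mia2 at 44.9 and 41.0 TPM and at 36.9 and 35.4 TPM.

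In propeptide removal, 4 of 8 were called. Pcolce, an enhancer of the proteinase Bmp1, was at 27.4 and 22.8 TPM and Pcolce2, not called, at 13.0 and 12.0 TPM. Bmp1 was at 9.56 and 7.41 TPM and Adamts2, the N-propeptidase, at 7.70 and 6.02 TPM. The remaining call was Adamts14, at 0.63 and 0.3 TPM. In cross-linking, 3 of 5 were called, the oxidases Loxl1, Loxl2 and Loxl3. Loxl1 and Loxl2 (14.1 and 11.0 TPM, 13.3 and 10.6 TPM) were above Lox (2.04 and 1.56 TPM) and Loxl3 (1.62 and 0.94 TPM). In fibril assembly partners, 6 of 9 were called, with Sparc, a collagen-binding glycoprotein, at 366 and 289.96 TPM, Bgn at 86.3 and 70.8 TPM and Fn1, fibronectin, at 33.7 and 23.8 TPM. Dcn, decorin, was at 166 and 153 TPM and was not called (adjusted p 0.481, exact binomial test).

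Among receptors, 2 of 10 were called, beside 10.2% of all tested genes called higher in replicate 1. Both calls fell in genes whose mean count reached 1000, and 16.9% of all such genes were called in that direction. Whether the receptor share exceeds these shares was not tested. Itgb1, the shared integrin beta chain, was at 159 and 146 TPM, Itga1 at 17.4 and 15.6 TPM and Ddr1 at 16.1 and 15.7 TPM. None of these was called. The calls were Ddr2, the fibrillar collagen receptor kinase, at 11.2 and 9.25 TPM and Mrc2 at 9.0 and 6.87 TPM. In breakdown, 1 of 6 tested genes was called, again near the 10.2% of all tested genes. It was Mmp14, a membrane-bound collagenase, at 6.35 and 5.02 TPM. Mmp2, a gelatinase, was at 40.7 and 33.8 TPM, Pepd at 8.82 and 9.03 TPM and Ctsk at 4.21 and 4.01 TPM. Mmp8 was at 0 in both.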

How the data were processed

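Total RNA-seq of 2 hearts of 1 group was analysed. The deposited gene and transcript tables made from transcriptome alignments hold expected counts, and those made from reads hold estimated counts, both without normalization. TPM values were deposited as the authors scaled them, with spike-ins among the entries. The score columns hold deposited credibility bounds of TPM at an unnamed level. The percent column, deposited in the alignment-based transcript tables, is each transcript's share of its gene. Listings deposited by the authors name mm10. For the aligner, the tool was not given in the sources used here.

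Members and lists were chosen with earlier results of these data known. Genes at 1 TPM in both hearts were called detected, and all of them are named, with the 4 highest of each pathway list. Expected counts were scaled with TMM factors (edgeR 4.0.16, R 4.3.3) and rounded. Genes with a mean scaled count of at least 10 were compared by a two-sided exact binomial test with Benjamini-Hochberg adjustment (scipy 1.17.1). It was tried on simulated counts that held counting error only, so its error rate under variation between hearts is not known. Ratio intervals are exact Clopper-Pearson intervals at 95% and cover counting error only. Positions and coding sequences came from GENCODE M21, promoters from RefSeq (GRCm38.p6). Alternatives were DESeq2 1.42.0 size factors, total and spike-in scaling, other thresholds and filters, read-based tables, posterior means and each heart alone. Settings added after seeing the data were 3 transcript-length measures of the chain ratios, 1 of them also for class shares, and unscaled counts in the exact test.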

Additional observations from a re-analysis of the deposited data

How the results depend on the processing

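No paired analysis was possible because the samples form a single group. Every spread between hearts rests on 2 values.

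The collagen share of TPM was 0.219% over nuclear coding genes and 0.111% in the read-based tables, and 0.0746% to 0.0981% in single hearts. Calls higher in replicate 1 numbered 15 without a filter, beside 5.89% of all tested genes, and 23 with spike-ins, beside 22.9%. The main setting had 17 calls, beside 10.2%, and the other settings gave between 15 and 23. All 17 main calls remained under DESeq2, total, spike-in and read-based scaling and unscaled counts. Without a filter Col16a1 and Col4a4 were lost, and with at least 50 counts Col2a1 was not tested. The median log2 ratio was -0.39 with spike-ins, where the median of all genes shifted by -0.10 and Col4a5 and Col6a6 turned to higher in replicate 1. Total counts turned both as well. With coding transcripts only, 12 of the 13 members with more than 1 coding transcript kept 1 leading transcript, beside 67.0% of 8093 such genes.

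Read-based log2 chain ratios were -0.05 for Col1a1 over Col1a2 (reversed), 1.58 for Col3a1 over Col1a1, 0.92 for Col5a1 over Col5a2, -1.39 for Col5a3 over Col5a1, -1.57 for Col5a1 over Col1a1, 1.18 for Col4a1 over Col4a2, -0.92 for Col4a3 over Col4a4, -3.63 for Col4a3 over Col4a5, -3.80 for Col4a5 over Col4a1 and 2.77 for Col15a1 over Col18a1. With a pseudocount of 1 they were -1.08 for Col5a3 over Col5a1, -1.78 for Col5a1 over Col1a1, -0.99 for Col4a3 over Col4a4, 3.28 for Col4a5 over Col4a6, -3.20 for Col4a3 over Col4a5, -3.14 for Col6a6 over Col6a3 and 3.11 for Col15a1 over Col18a1. Posterior means gave -1.18 for Col5a3 over Col5a1, -1.10 for Col4a3 over Col4a4 and -3.56 for Col4a3 over Col4a5. The cause of these changes was not tested.

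The next 3 settings were chosen after seeing the data. The share of type IV minus that of fibrillar genes was 3.23 percentage points, 1.78 to 4.67 in single hearts, and -2.65 over coding transcripts of at least 2000 bases (reversed). Coding transcripts of at least 2000 bases gave 0.36 for Col1a1 over Col1a2, 0.96 for Col3a1 over Col1a1, 0.79 for Col5a1 over Col5a2, 0.27 for Col4a1 over Col4a2, -1.11 for Col4a3 over Col4a4, -2.80 for Col4a5 over Col4a1, -1.03 for Col6a3 over Col6a1, -3.05 for Col6a6 over Col6a3 and 2.84 for Col15a1 over Col18a1. The longest coding transcript alone was tried first and is a poor measure, since in Col6a2, Col6a3 and Col18a1 it is not the leading transcript. It gave 4.17 for Col6a1 over Col6a2 and 4.01 for Col6a6 over Col6a3 (both reversed), -8.28 for Col6a3 over Col6a1, 5.80 for Col15a1 over Col18a1, 0.36 for Col1a1 over Col1a2, 0.96 for Col3a1 over Col1a1, 0.79 for Col5a1 over Col5a2, 0.27 for Col4a1 over Col4a2, -1.11 for Col4a3 over Col4a4 and -2.87 for Col4a5 over Col4a1. Gene counts per length of that transcript gave 0.07 for Col6a1 over Col6a2 (reversed), 0.32 for Col1a1 over Col1a2, 0.98 for Col3a1 over Col1a1, 0.31 for Col4a1 over Col4a2, -1.20 for Col4a3 over Col4a4, -2.87 for Col4a5 over Col4a1, -1.19 for Col6a3 over Col6a1 and -3.07 for Col6a6 over Col6a3.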
